A study of Mus musculus with 40 samples.

Results

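The antioxidant and glutathione enzymes described here are 60 mouse genes that remove superoxide, peroxides and electrophiles, make and recycle glutathione, repair oxidized protein or set the level of this defence, together with the phagocyte NADPH oxidase, which makes superoxide. They were taken by name from the 36362 entries in the gene column of an Agilent 1-colour array and matched 80 of its 55589 probes, and the probe with the highest mean over the 40 arrays stands for its gene. Of the 60 genes, 43 had 1 probe, 15 had 2 and 2 had more. The array was hybridised with total RNA from the cerebral cortex and the cerebellum of C57Bl/6 mice, in 10 groups of 4 samples. In each region the groups were wild type at 2 months on a normal diet (36 mg of alpha-tocopherol per kg), wild type at 29 months on the normal diet, wild type at 29 months on a vitamin E deficient diet, Ttpa-/- at 29 months on the deficient diet, and Ttpa-/- at 29 months on a diet supplemented with 600 mg per kg. Ttpa encodes the liver protein that loads alpha-tocopherol, the main form of vitamin E, into the circulation, so its loss lowers vitamin E throughout the body. The groups analysed here hold no Ttpa-/- mice on the normal diet and no young Ttpa-/- mice, and the labels do not say whether cortex and cerebellum samples of the same number came from one animal, nor give sex or litter, so p-values measure the spread between these samples.

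Vitamin E stops lipid peroxidation within membranes, and the enzymes below work beside it. Superoxide dismutases turn superoxide into hydrogen peroxide. Catalase breaks this peroxide down to water and oxygen, while glutathione peroxidases and peroxiredoxins reduce it with electrons from glutathione and thioredoxin. Many of these genes are switched on by the transcription factor Nrf2, the product of Nfe2l2, which the adaptor Keap1 holds in the cytosol and marks for breakdown until oxidants or electrophiles modify Keap1.

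Levels are log2 of the processed signal minus the 75th percentile of the array, changes are differences of such levels, and summed marker levels are linear signals divided by that percentile. A gene was called changed at an adjusted p under 0.05 in limma's moderated test and a fold over 1.5. Of the 60 genes, 59 were well above background on all 40 arrays, and Cybb was so on 14. Region labels matched their markers: a list of cortical genes summed to 102 to 142 in cortex and 1.09 to 5.03 in cerebellum. Ttpa checked the genotype in cerebellum only, where its brighter probe passed background on all 4 arrays in every wild-type group, none of the 4 Ttpa-/- deficient and 1 of the 4 Ttpa-/- supplemented arrays, since in cortex at most 1 array a group passed. Choroid plexus markers set 4 arrays apart by over 5-fold from the median of their group: replicate 1 of young cerebellum was high (254), and replicate 4 of young cortex (3.02), replicate 4 of aged wild-type cortex on the normal diet (4.90) and replicate 1 of Ttpa-/- deficient cortex (12.7) were low. Without these arrays 39 of the 47 calls described below were kept, and the 8 that were lost are given with both values. Whole groups differed in these markers too. On the normal diet they summed to 8.99 to 254 in young and 6.31 to 7.27 in aged wild-type cerebellum, with no overlap. In wild-type cortex on that diet they summed to 3.02 to 137 in young and 4.90 to 151 in aged mice. Their part in the changes with age in cerebellum and between regions was not tested. The 10 groups lay on 5 slides of 8 arrays, so that age in cortex, the deficient diet in wild-type cerebellum and the diets in Ttpa-/- cerebellum were compared within a slide, and in every other comparison slide and group cannot be told apart. Comparisons that use the same aged wild-type arrays are not independent of each other.

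Age changed few of the 60 genes in cortex, and all that passed both thresholds rose. Comparing 29 with 2 months in wild type on the normal diet, 4 of the 59 genes tested were called, all higher at 29 months, against 2.09% of all 28043 probes tested in either direction and 1.59% in that direction. With no limit on the fold 7 genes passed, 5 higher and 2 lower, against 4.15% of all probes. The 4 were Nfe2l2, Hmox1, Mgst1 and Cyba. In cerebellum 9 of 60 genes were called, 8 higher and 1 lower, against 5.03% of 30627 probes in either direction and 3.99% that were higher, and 15 passed at any fold, 11 higher and 4 lower, against 11.0%. The same 4 genes were among them, joined by Cybb, Ncf1, Gpx3 and Txnip, which rose, and Gpx8, which fell. Cybb entered this test only because its aged arrays were above background. The median change of all members was 0.04 in cortex and 0.11 in cerebellum, beside -0.03 and -0.01 for all probes tested.

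**Figure D1:**
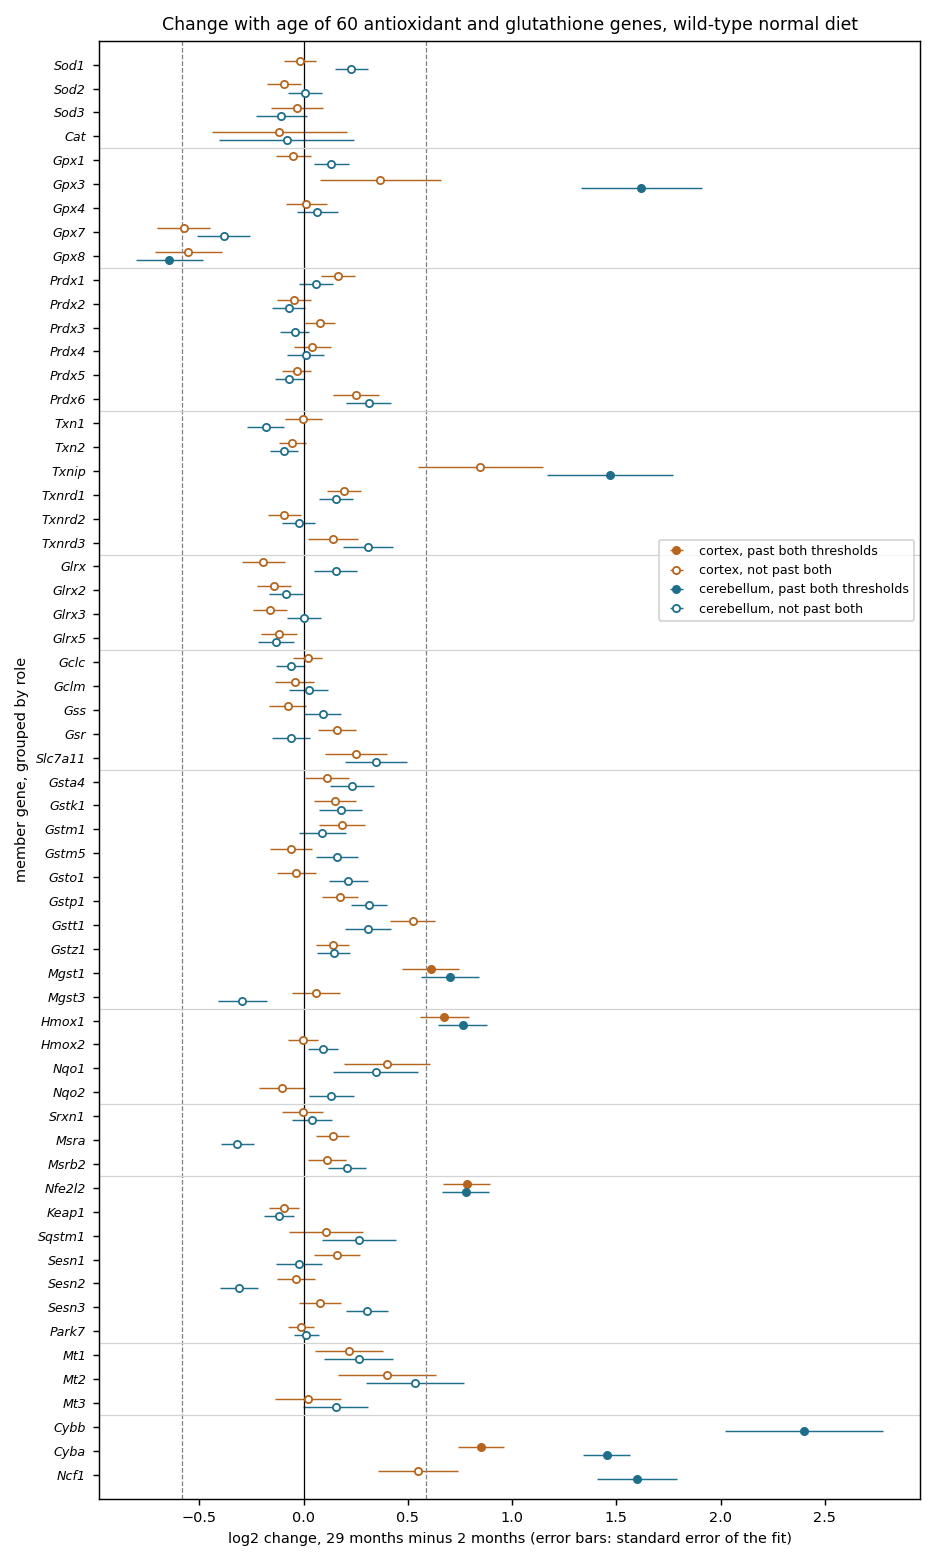
Log2 change from 2 to 29 months in wild-type mice on the normal diet for each of the 60 genes, in role order, in cortex (brown) and cerebellum (blue), with the standard error of the fit. Filled points passed both thresholds and dashed lines mark a fold of 1.5. Cybb in cortex was not tested and is not drawn. Most points lie near 0, and Cybb, Gpx3, Ncf1, Txnip and Cyba in cerebellum lie farthest to the right.

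Nfe2l2, the gene of Nrf2 itself, rose with age by the same amount in both regions. Its probe lies on the minus strand at chr2:75513771-75513830 (mm9, the build of the array files), and those of Hmox1, Mgst1 and Cyba lie at chr8:77624207-77624266, chr6:138104846-138104905 and chr8:124948726-124948785. The files do not say which exon or UTR a probe is in. In cortex its levels were 0.56, 0.55, 0.51 and 0.55 at 2 months and 1.34, 1.53, 1.44 and 0.99 at 29 months. In cerebellum they were 0.69, 1.07, 0.92 and 0.96 at 2 months and 1.87, 1.67, 1.51 and 1.70 at 29 months. Every aged array lay above every young one. The change of Nfe2l2 was 0.78 ± 0.11 in cortex (SE, adjusted p = 2.32e-05) and 0.78 ± 0.11 in cerebellum (adjusted p = 7.04e-06). Keap1, its partner and inhibitor, was not called in either region (-0.09 and -0.12), and Sqstm1, whose protein p62 competes with Nrf2 for Keap1, was not either (0.11 and 0.26). The stress-induced sestrins Sesn1, Sesn2 and Sesn3, which help reduce peroxiredoxins, showed no called change, although Sesn2 fell by 0.31 in cerebellum (adjusted p = 0.0244) and Sesn3 was 0.31 higher there (adjusted p = 0.0468), both under the fold limit.

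Hmox1, the inducible heme oxygenase that breaks heme down to biliverdin, iron and carbon monoxide, moved likewise. Its levels in cortex were -0.61, -0.62, -0.61 and -0.40 at 2 months and 0.07, 0.24, 0.32 and -0.18 at 29 months. In cerebellum they were -0.73, -0.74, -0.68 and -0.63 against 0.18, -0.03, 0.14 and -0.02. The ages did not overlap in either region, with changes of 0.68 ± 0.12 in cortex (adjusted p = 0.000425) and 0.76 ± 0.12 in cerebellum (adjusted p = 2.29e-05). A second and dimmer probe of Hmox1 gave 0.25 and 0.11 and was called in neither region, so the rise rests on 1 of its 2 probes. The constitutive enzyme Hmox2 was not called in either region, nor were the quinone reductases Nqo1 (0.40 and 0.35) and Nqo2 (-0.10 and 0.13).

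Mgst1, a membrane-bound glutathione transferase that also reduces lipid hydroperoxides, was called with age in both regions. It was the only one called of the 10 glutathione transferases among the genes described here. Transferases in the wider list of pathway genes, described below, were also called, all higher with age. They were Gsta2 (2.37), Gstt3 (1.13), Gstt2 (0.62) and Gstm2 (0.61) in cortex. In cerebellum they were Mgst2 (1.47), Gstm6 (0.99) and Gstt3 (0.77). Levels of Mgst1 were 0.43, 0.09, 0.15 and 0.23 in young cortex and 0.98, 0.92, 0.90 and 0.53 in aged cortex. In cerebellum they were 1.47, 1.51, 1.47 and 1.43 against 2.33, 2.07, 2.02 and 2.27. Aged arrays were above all young ones in both regions, by 0.61 ± 0.14 (adjusted p = 0.00708) and 0.70 ± 0.14 (adjusted p = 0.000613), and a second probe was called too (0.67 and 0.65). In cortex the fold of 1.53 was close to the limit, and the call was lost when any of 4 single arrays was left out. Gstt1, a theta-class transferase, passed at any fold in cortex (0.52, adjusted p = 0.00282), and Gstp1, the pi-class enzyme, did so in cerebellum (0.31, adjusted p = 0.0133).

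Sequence upstream of these genes is shown for the windows that hold an antioxidant response core, the letters to which Nrf2 binds with a small Maf protein. RefSeq windows (GRCm38.p6) from 250 bases before to 50 after a gene's start were available for 53 of the 60 genes, and not for Hmox1. The core TGACNNNGC, searched on both strands, was in a window of 11 of the 53 genes (20.8%) and in 12.4% of all 32851 windows. The 53 genes had 69 windows and any of them counted for its gene, so the shares are not like for like. Nfe2l2 and 1 of the windows of Mgst1 held the core once each, as the capitals show, and that of Cyba did not.
Nfe2l2, chr2:75704614-75704913, minus strand: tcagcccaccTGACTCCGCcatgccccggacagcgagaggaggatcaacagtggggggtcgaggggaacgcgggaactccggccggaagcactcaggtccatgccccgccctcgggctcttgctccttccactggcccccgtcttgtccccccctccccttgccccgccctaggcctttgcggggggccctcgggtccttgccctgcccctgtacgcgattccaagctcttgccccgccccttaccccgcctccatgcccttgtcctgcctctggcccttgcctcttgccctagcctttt
Mgst1, chr6:138140277-138140576, plus strand: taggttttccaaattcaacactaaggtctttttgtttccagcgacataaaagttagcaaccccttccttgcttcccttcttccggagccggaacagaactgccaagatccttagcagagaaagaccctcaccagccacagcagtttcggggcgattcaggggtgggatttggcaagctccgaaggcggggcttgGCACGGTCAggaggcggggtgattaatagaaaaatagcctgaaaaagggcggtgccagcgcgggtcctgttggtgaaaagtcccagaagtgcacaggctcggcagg
A match of these letters is a description of the window and not a measured binding site.

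**Figure D2:**
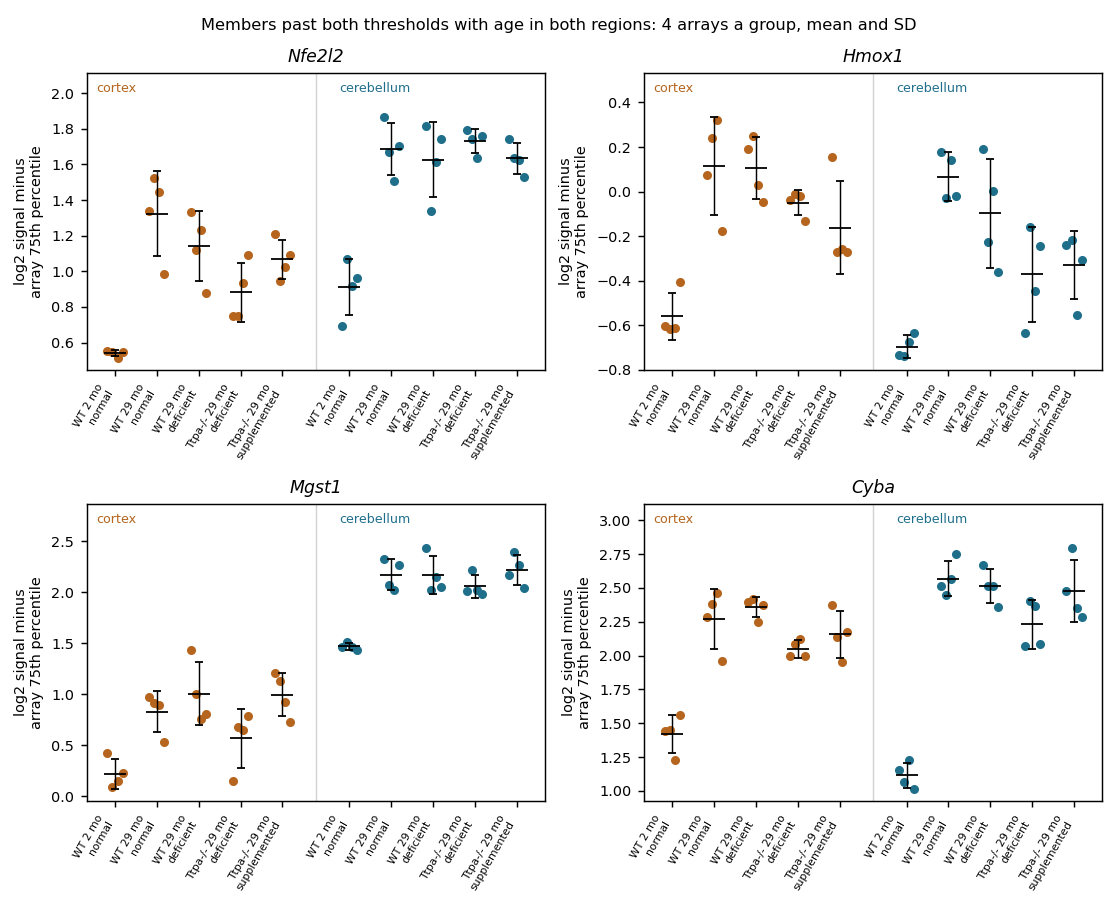
Level of Nfe2l2, Hmox1, Mgst1 and Cyba on each array (log2 signal minus the array's 75th percentile), with the mean and SD of the 4 arrays in each of 10 groups, cortex in brown and cerebellum in blue. In each panel the 4 young arrays of a region lie below the 4 aged wild-type arrays on the normal diet.

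Cyba and Ncf1 of the phagocyte NADPH oxidase rose in cerebellum, Cyba also in cortex, and Cybb passed background in aged but not young cerebellum. This enzyme of microglia and other phagocytes is built from the membrane subunits gp91phox (Cybb) and p22phox (Cyba) and cytosolic subunits such as p47phox (Ncf1). Cyba levels were 1.45, 1.45, 1.23 and 1.56 in young cortex and 2.28, 2.38, 2.47 and 1.96 in aged cortex, and 1.15, 1.07, 1.23 and 1.02 against 2.51, 2.45, 2.56 and 2.75 in cerebellum. The groups were apart in both regions, by 0.85 ± 0.11 in cortex (1.80-fold, adjusted p = 5.26e-06) and 1.45 ± 0.11 in cerebellum (2.74-fold, adjusted p = 1.67e-11). A second probe of Cyba was called in both regions (0.73 and 1.18).

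Ncf1 levels in cerebellum were -3.96, -3.64, -3.47 and -3.14 at 2 months and -1.84, -2.02, -2.03 and -1.92 at 29 months. In cortex they were -2.15, -2.21, -2.23 and -1.94 against -1.69, -1.43, -1.52 and -1.70. The ages were apart in both regions, but only the cerebellar change of 1.60 ± 0.19 (3.03-fold, adjusted p = 2.53e-07) was called, and the cortical one of 0.55 did not pass the test. Cybb was above background on 0 of 4 young and 4 of 4 aged cerebellar arrays and was at least 1.74-fold higher at 29 months. It was tested only through the aged arrays, so its call rests on a filter passed by the group where it was high. In cortex Cybb was not above background on any array of either age.

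The change with age differed between the regions for Cyba and Ncf1. The cerebellar change minus the cortical one was 0.60 for Cyba (adjusted p = 0.0366) and 1.05 for Ncf1 (adjusted p = 0.0336), the 2 called of 60 genes, against 1.46% of 31372 probes. With no fold limit 3 passed against 1.83%, the third being the methionine sulfoxide reductase Msra (-0.46, adjusted p = 0.0267), which fell by 0.32 in cerebellum (adjusted p = 0.00763) and was at 0.14 in cortex. These calls are not firm: the number called ranged from 0 to 2 when single arrays were left out, and without the 4 arrays apart in choroid plexus markers none was called (Cyba 0.46, adjusted p = 0.22, and Ncf1 0.81, adjusted p = 0.236). A second probe of Cyba gave 0.46 and was not called.

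Microglial markers moved with these genes. Of 15 microglial markers, 6 were called higher at 29 months in cortex and 12 in cerebellum, and 12 had a larger rise in cerebellum by the test of the difference. Their summed level was 235 to 251 in young and 285 to 328 in aged cerebellum, and 289 to 355 against 280 to 372 in cortex, and none of the 15 was below background on every array of a group. In whole tissue, more cells of a type and more RNA per cell cannot be told apart, and the part of microglia in these changes was not tested.

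Gpx3 and Txnip also rose in cerebellum, with a wider spread between arrays. Gpx3, the extracellular glutathione peroxidase of plasma, was at -1.83, -2.87, -2.19 and -1.55 at 2 months and -0.70, -0.63, -0.62 and -0.01 at 29 months in cerebellum. Txnip, which binds and inhibits thioredoxin and limits glucose uptake, was at -0.62, -0.46, -0.44 and 0.08 against 0.89, 0.92, 0.54 and 2.09. Ages did not overlap for either, with changes of 1.62 ± 0.29 for Gpx3 (3.07-fold, adjusted p = 0.000172) and 1.47 ± 0.30 for Txnip (2.77-fold, adjusted p = 0.000962). In cortex Gpx3 was at 0.37 and Txnip at 0.85, and neither passed the test. Blood markers were also higher with age: they summed to 1.88 to 7.55 in young and 19.4 to 42.5 in aged cortex, and to 11.0 to 29.1 and 45.8 to 277 in cerebellum, and their part in the Gpx3 and Txnip changes was not tested.

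**Figure D3:**
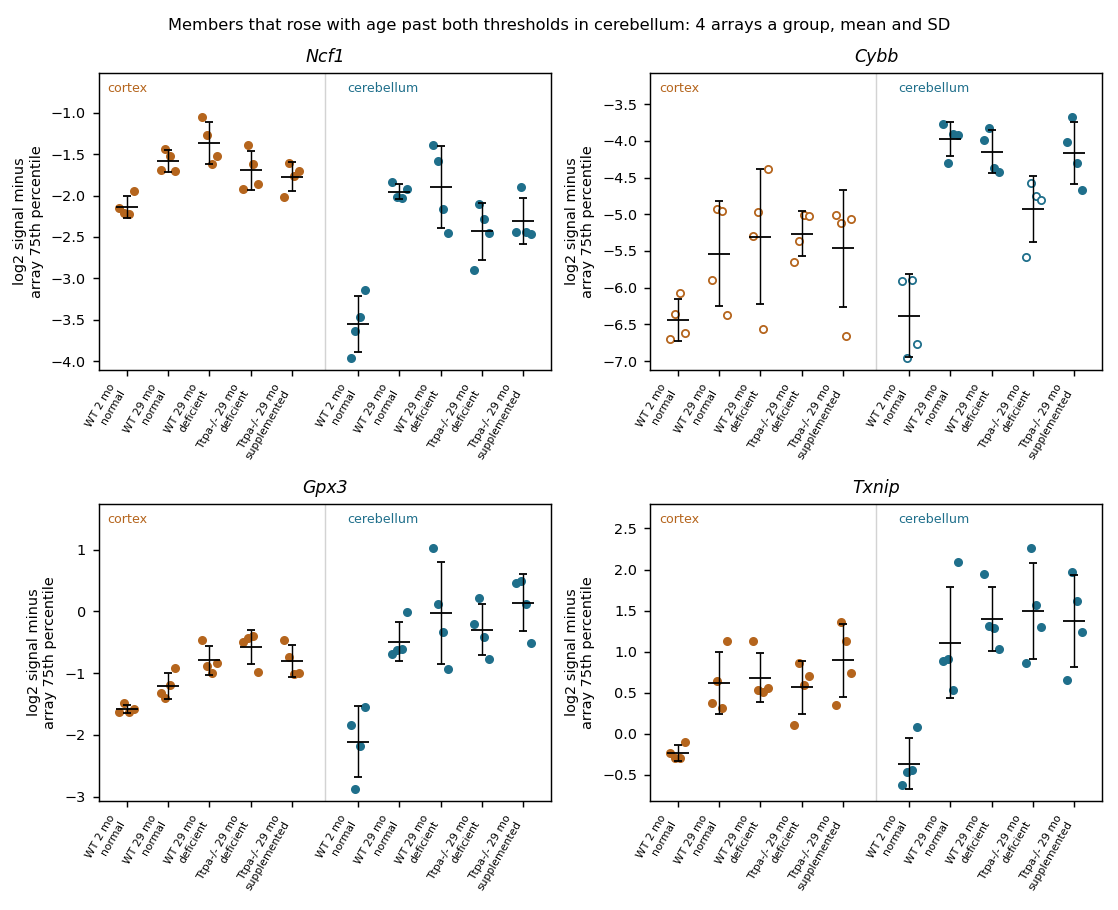
Level of Ncf1, Cybb, Gpx3 and Txnip on each array (log2 signal minus the array's 75th percentile), with mean and SD of 4 arrays, in 10 groups. Open points mark groups in which the gene was not well above background on all 4 arrays, as for Cybb in young cerebellum and throughout cortex. Young cerebellum lies below the aged wild-type groups in each panel.

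Gpx7 and Gpx8, peroxidases of the endoplasmic reticulum that help protein folding, passed at any fold as lower at 29 months in both regions. Gpx8 was at 0.67, -0.16, -0.02 and -0.13 in young and -0.48, -0.60, -0.69 and -0.44 in aged cerebellum (-0.64 ± 0.16, adjusted p = 0.00689). The high young value was that of the array rich in choroid plexus markers, and without this array the change was -0.45 and under the fold limit. In cortex the lowest Gpx8 value of a group was on the array poor in choroid plexus markers in each of the 3 groups that had one. Gpx7 was at -1.49, -1.51, -1.75 and -1.57 against -2.06, -2.26, -2.09 and -2.21 in cortex, a fall of 0.58 with a fold of 1.49 (adjusted p = 0.00554), and fell by 0.38 in cerebellum (adjusted p = 0.0478). The groups of Gpx7 were apart in both regions.

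The core enzymes of the defence showed little change with age. None of Sod1, Sod2, Sod3 and Cat was called, with changes of -0.12 to -0.02 in cortex and -0.11 to 0.23 in cerebellum. The 6 peroxiredoxins (-0.05 to 0.25 and -0.07 to 0.31), the 4 glutaredoxins (-0.19 to -0.12 and -0.13 to 0.16) and the 5 genes of glutathione synthesis, reduction and cystine import (-0.08 to 0.25 and -0.06 to 0.35) held no called gene in either region. Among them Sod1 alone passed at any fold, in cerebellum (0.23, adjusted p = 0.0498). The metallothioneins Mt1, Mt2 and Mt3 were between 0.02 and 0.40 in cortex and between 0.15 and 0.53 in cerebellum, with none passing.

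Other genes of the same pathways, 74 listed and 70 on the array, were all higher where called with age. At 29 months 6 of 61 tested were called in cortex (9.84%) and 10 of 63 in cerebellum (15.9%), all higher, against 2.09% and 5.03% of all probes in either direction, with a median change of 0.18 and 0.14. The largest in cortex were Maff, a small Maf partner of Nrf2 (2.50, adjusted p = 0.00346), and the alpha-class transferase Gsta2 (2.37, adjusted p = 0.000111). In cerebellum they were Maff again (2.60, adjusted p = 0.000872) and Ncf4, the p40phox subunit of the phagocyte oxidase (1.74, adjusted p = 6.81e-09).

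More members were called between the regions than between the ages, as were more of all probes. The share of members called, 23.7% at 2 months and 23.3% at 29 months, was below that of all probes. At 2 months 14 of 59 genes differed between cerebellum and cortex, 6 higher and 8 lower in cerebellum, against 38.4% of 30203 probes, and at 29 months 14 of 60, 8 higher and 6 lower, against 33.6% of 30859. The 8 include Cybb (1.56), which was above background on no aged cortical array and was tested only through cerebellum. Its difference was at least 1.26-fold, a bound under the fold limit. At any fold 37 and 33 genes passed, against 62.5% and 56.4%. Mgst1 (1.25 at 2 months and 1.34 at 29 months), Nqo1 (1.19 and 1.13), Nqo2 (0.77 and 1.01) and the sestrin Sesn2 (0.88 and 0.61) were called higher in cerebellum at both ages. Nqo1, the NAD(P)H quinone reductase, was at -2.24, -2.72, -2.11 and -2.39 in young cortex and -1.16, -1.24, -1.08 and -1.25 in young cerebellum, and the groups were apart. Nqo2, its relative that uses another hydride donor, was at -0.38, -0.32, -0.48 and -0.46 against 0.28, 0.36, 0.47 and 0.36 in the same groups.

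On the cortical side at both ages were the mu-class transferase Gstm5 (-1.12 and -0.90), the cystine importer Slc7a11 (-0.92 and -0.82), the mitochondrial glutaredoxin Glrx2 (-0.79 and -0.73), the mitochondrial methionine sulfoxide reductase Msrb2 (-0.78 and -0.68) and Mt3 (-0.72 and -0.59), the metallothionein of the brain. Gstm5 was at 4.70, 4.61, 4.55 and 4.84 in young cortex and 3.42, 3.45, 3.70 and 3.66 in young cerebellum, with no overlap. Slc7a11 ranged from -1.08 to -0.91 in young cortex and from -2.12 to -1.70 in young cerebellum. For Glrx2 the second probe gave 0.06 and -0.12 and was called at neither age, whereas for the mitochondrial thioredoxin Txn2 a dim probe was called higher in cerebellum (1.66 and 1.78) and the bright one was at 0.06 and 0.02, so these 2 genes depend on the probe. Ncf1 (-1.42), Glrx (-0.85) and Sod1 (-0.62), called lower in young cerebellum, were not called at 29 months (-0.37, -0.50 and -0.38). Without the 4 arrays apart in choroid plexus markers, Sod1 at 2 months (-0.57) and Sesn2 (0.57) and Mgst3 (-0.50, from -0.60) at 29 months passed the test but fell under the fold limit. Microglial markers moved with the regional difference of Ncf1, with 13 of 15 called lower in young cerebellum (median -1.71) and 5 at 29 months (median -0.21). All blood markers tested were called higher in cerebellum, 7 of 7 at 2 months and 8 of 8 at 29 months, and the part of either list in the regional differences was not tested. For Gclm, Gpx3, Mgst3, Mt2, Mt3 and Sesn2 the call at 29 months was lost with at least 1 single array left out.

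**Figure D4:**
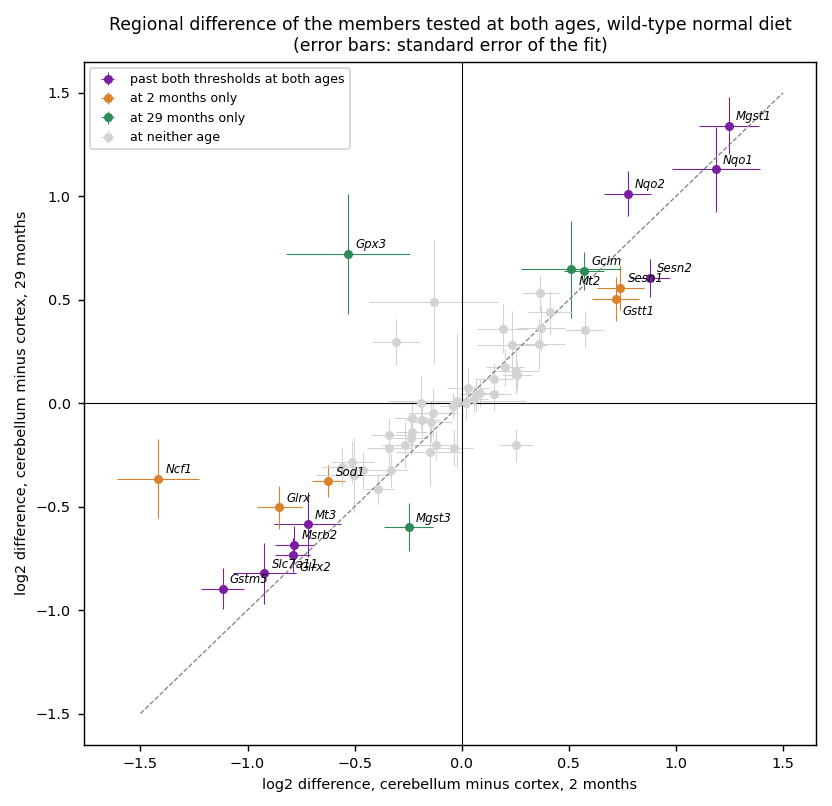
Log2 difference between cerebellum and cortex at 29 months (vertical) against that at 2 months (horizontal) in wild type on the normal diet, 1 point a gene, with standard errors of the fit and a dashed line of equality. Cybb, not tested at 2 months, is not drawn. Mgst1, Nqo1, Nqo2 and Sesn2 lie high at both ages, Gstm5, Slc7a11, Glrx2, Msrb2 and Mt3 low at both, and Ncf1 moves from -1.42 to -0.37.

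Ttpa-/- cortex on the deficient diet held few called members, and the share passing at any fold was near that of all probes. Genotype, diet and slide all differ in this contrast and cannot be told apart. Against aged wild type on the normal diet, Ttpa-/- on the deficient diet had 1 of 59 genes called, Mt2, which was lower, against 4.75% of 28913 probes. At any fold 11 passed (18.6%), 2 higher and 9 lower, against 19.0%. The median change of all members was -0.08, beside -0.02 for all probes tested. Of 3 thioredoxin reductases and 6 peroxiredoxins, 2 of each passed at any fold, all lower and under the fold limit: Txnrd3, a thioredoxin reductase (-0.48, adjusted p = 0.0052), Txnrd2, the mitochondrial one (-0.35, adjusted p = 0.00311), Prdx6, which also reduces phospholipid hydroperoxides (-0.43, adjusted p = 0.00626), and Prdx4 of the endoplasmic reticulum (-0.28, adjusted p = 0.0256). Txnrd3 was at -0.20, -0.20, -0.34 and -0.32 in wild type on the normal diet and -0.94, -0.59, -0.83 and -0.62 in Ttpa-/- on the deficient diet, with no overlap. Nfe2l2 was lower (-0.44, adjusted p = 0.00602) and so was Keap1 (-0.24, adjusted p = 0.0213), while Hmox2 (0.20, adjusted p = 0.046) and Mt3 (0.48, adjusted p = 0.028) were higher.

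The supplemented diet, compared with the deficient one in Ttpa-/- cortex, gave no called member among 59, against 3.31% of 29077 probes, in limma's test. At any fold 8 passed, 7 lower on the deficient diet and 1 higher, against 14.1%, and 13 had an unadjusted p under 0.05. They included Txnrd3 (-0.47, adjusted p = 0.00813), Txnrd2 (-0.31, adjusted p = 0.0113), Prdx6 (-0.34, adjusted p = 0.0352), Prdx4 (-0.31, adjusted p = 0.0177) and Mgst1 (-0.43, adjusted p = 0.0345). A second probe of Mgst1 was called (-0.60, adjusted p = 0.00576). Txnrd3 on the supplemented diet was at -0.36, -0.08, -0.29 and -0.35, above all 4 deficient arrays. This comparison and the one with wild type share the Ttpa-/- deficient arrays. Markers of oligodendrocytes were lower on those arrays as well: of 10 markers 4 were called lower than on the supplemented diet and 2 lower than in wild type, with a summed level of 179 to 237 against 271 to 354 and 223 to 379. Against wild type on the normal diet, 9 of 9 striatal markers tested were higher in Ttpa-/- deficient cortex and 2 were called, with summed levels of at most 71.4 against 41.4 to 53.7 and no overlap, and 8 of 8 choroid plexus markers were higher with none called. With age 3 of 9 striatal markers were called lower in cortex, and 3 of 7 were called higher in cerebellum. The part of these lists in the shifts was not tested.

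Mt1 and Mt2, small cysteine-rich proteins that bind zinc and copper and scavenge radicals, were lower in Ttpa-/- than in wild-type cortex on the deficient diet. Cortical Mt2 was at 8.05, 7.54, 7.30 and 6.79 in wild type on the deficient diet and 5.66, 6.58, 6.51 and 6.48 in Ttpa-/- on that diet, with no overlap, a difference of -1.11 ± 0.23 (2.16-fold, adjusted p = 0.0029). Mt1 was at 8.38, 8.22, 8.08 and 7.69 against 7.08, 7.70, 7.57 and 7.54, which overlapped at 1 array, a difference of -0.62 ± 0.16 (1.53-fold, adjusted p = 0.0138). They were the 2 genes called of 59, against 3.07% of 29061 probes, and 14 passed at any fold, 3 higher and 11 lower, against 13.0%. Mt3 went the other way (0.46, adjusted p = 0.0484). Astrocyte markers were lower on the same arrays: none of 10 was called, 8 were lower than in wild type on the deficient diet and 10 lower than on the normal diet, and their summed level was 394 to 443 against 459 to 477 and 452 to 483, with no overlap. Their part in the metallothionein values was not tested. The longest run of bases shared by the 60-base probes of Mt1 and Mt2 was 7.

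Against wild type on the normal diet, which was at 7.04, 7.23, 7.08 and 7.02, Mt2 in Ttpa-/- on the deficient diet differed by -0.78 ± 0.23 (adjusted p = 0.0182) and all 4 of its arrays were lower. Its lowest array, replicate 1 at 5.66, is also one of the arrays apart in choroid plexus markers. Without those arrays the difference from wild type on the normal diet was -0.59 and did not pass (adjusted p = 0.143), that from wild type on the deficient diet was -0.89 and did (adjusted p = 0.0293), and that of Mt1 was -0.49 and did not (adjusted p = 0.0822). Wild type on the deficient diet was 0.33 above wild type on the normal diet for Mt2 and 0.28 for Mt1, and neither passed the test.

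**Figure D5:**
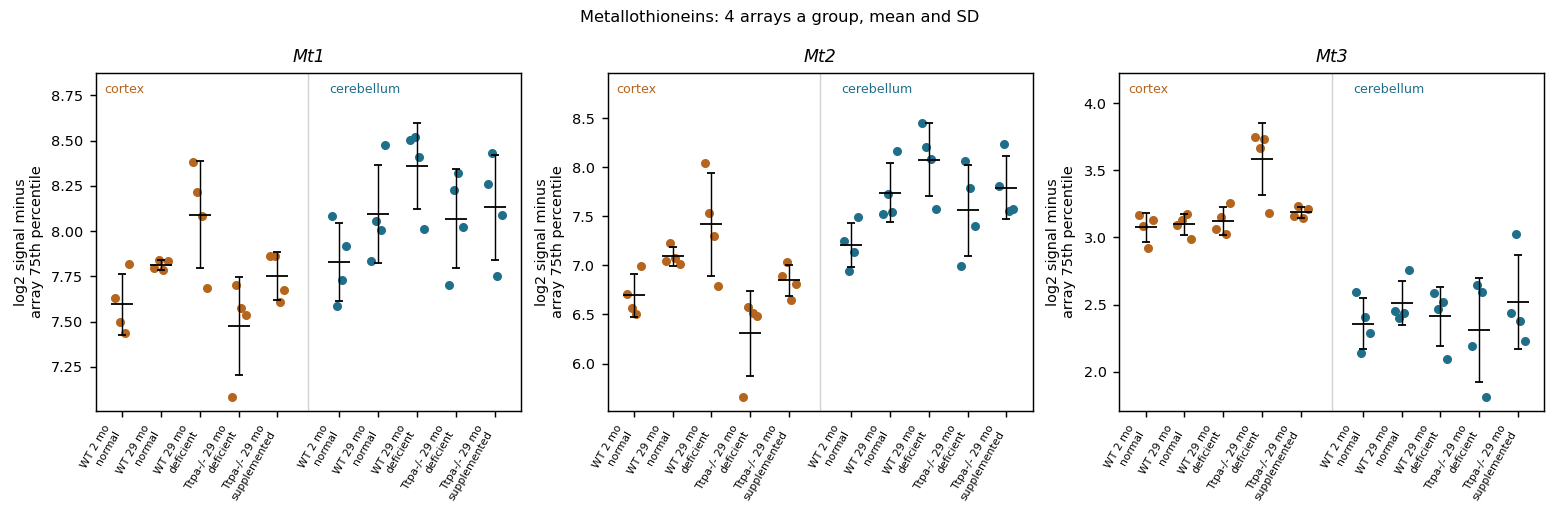
Level of Mt1, Mt2 and Mt3 on each array (log2 signal minus the array's 75th percentile), with mean and SD of 4 arrays, in 10 groups, cortex in brown and cerebellum in blue. In cortex the group mean of Ttpa-/- on the deficient diet is the lowest for Mt1 and Mt2 and the highest for Mt3.

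The 3 genes lie together on chromosome 8, and their upstream windows are shown because Mt1 and Mt2 moved together and Mt3 did not. Capitals mark the metal response cores TGCACNC and TGCGCNC, bound by the zinc-sensing factor MTF-1, on either strand. None of them overlaps an antioxidant response core.
Mt1, chr8:94178839-94179138, plus strand: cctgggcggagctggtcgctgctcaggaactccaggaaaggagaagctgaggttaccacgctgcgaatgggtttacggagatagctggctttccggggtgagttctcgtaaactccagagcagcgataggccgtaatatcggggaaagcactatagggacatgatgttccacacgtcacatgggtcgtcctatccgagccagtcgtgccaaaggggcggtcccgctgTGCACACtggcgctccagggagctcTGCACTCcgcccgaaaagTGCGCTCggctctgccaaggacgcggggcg
Mt2, chr8:94172368-94172667, plus strand: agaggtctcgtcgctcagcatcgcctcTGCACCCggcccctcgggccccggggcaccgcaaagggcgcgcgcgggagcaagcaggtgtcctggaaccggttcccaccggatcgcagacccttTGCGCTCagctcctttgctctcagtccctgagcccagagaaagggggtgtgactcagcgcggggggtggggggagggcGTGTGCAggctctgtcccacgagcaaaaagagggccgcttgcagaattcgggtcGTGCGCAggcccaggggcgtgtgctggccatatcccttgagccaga
Mt3, chr8:94152357-94152656, plus strand: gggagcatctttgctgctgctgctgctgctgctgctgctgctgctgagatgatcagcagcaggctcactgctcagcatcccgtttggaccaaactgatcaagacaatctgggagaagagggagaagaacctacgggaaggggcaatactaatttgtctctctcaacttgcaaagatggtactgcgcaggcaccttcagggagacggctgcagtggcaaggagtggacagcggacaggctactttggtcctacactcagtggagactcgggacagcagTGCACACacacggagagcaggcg
Mt1 held 3 matches, Mt2 held 4 and Mt3 held 1. At least 1 match was in 25.7% of all windows and in a window of 18 of the 53 genes (34.0%), and 3 or more were in 1.97% of all windows. The share of genes counts any of a gene's windows and is not like for like with the share of windows. The windows do not show which matches are used.

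In cerebellum the same contrast gave no called member. Against aged wild type on the normal diet, Ttpa-/- on the deficient diet had 0 of 60 genes called by limma, against 4.46% of 30604 probes, 18 with an unadjusted p under 0.05, and 1 by the methods' t-test unadjusted and 0 after adjustment. At any fold 11 passed, 2 higher and 9 lower, against 13.2%. Hmox1 was lower (-0.44, adjusted p = 0.0132) at -0.63, -0.16, -0.45 and -0.24 against 0.18, -0.03, 0.14 and -0.02, with no overlap. Cyba (-0.34, adjusted p = 0.0398), the peroxidase Gpx1 (-0.33, adjusted p = 0.00842) and Keap1 (-0.28, adjusted p = 0.0104) were lower too, while Sesn2 (0.44, adjusted p = 0.00163) and Sesn3 (0.32, adjusted p = 0.0313) were higher. Sesn2 was at 2.36, 2.55, 2.37 and 2.42 in Ttpa-/- on the deficient diet and 2.02, 2.00, 1.91 and 2.00 in wild type on the normal diet. Of 15 microglial markers 5 were called lower in the same contrast, with a summed level of 238 to 315 against 285 to 328, and their part in the lower Cyba and Hmox1 was not tested.

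Sesn2 stood out in Ttpa-/- cerebellum on either diet. On the supplemented diet it was at 2.35, 2.51, 2.19 and 2.44, which was 0.39 above wild type on the normal diet (adjusted p = 0.0045), and on the deficient diet it was 0.47 above wild type on that diet (adjusted p = 0.000853). All 8 Ttpa-/- arrays were above all 8 aged wild-type arrays, the highest of which was at 2.06, and none of these folds reached 1.5. Ttpa-/- and wild-type cerebella lay on different slides.

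The other comparisons in cerebellum held 1 called member. Genotypes on the deficient diet differed in 1 of 60 genes, Gpx7, against 4.94% of 30552 probes, with 5 at any fold, 4 higher and 1 lower, against 12.8%. Gpx7 was at -1.86, -1.72, -1.92 and -1.68 in Ttpa-/- and -2.67, -2.54, -2.30 and -2.04 in wild type, apart by 0.59 ± 0.13 (1.51-fold, adjusted p = 0.00235), and the call was lost when any of 4 single arrays was left out. Ttpa-/- on the supplemented diet against wild type on the normal diet gave 0 called genes in limma, against 4.91% of 31265 probes, and 5 at any fold, 1 higher and 4 lower, against 14.7%, with 15 at an unadjusted p under 0.05. Hmox1 was again lower (-0.40, adjusted p = 0.0222).

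No gene of the 60 was called for diet alone in either genotype or region. In wild-type cerebellum 47 of 60 genes were lower and 13 higher on the deficient diet, and 48.1% of all probes tested were higher. The median was -0.11 for the genes, beside -0.01 for all probes. With median scaling instead, the median of all probes was -0.19, so these directions depend on the scaling. The deficient diet gave 0 called genes there in limma, against 1.27% of 30990 probes, 17 at an unadjusted p under 0.05, and 6 at any fold, all lower, against 4.58%. They were Msrb2 (-0.44, adjusted p = 0.00812), the mitochondrial peroxiredoxin Prdx3 (-0.30, adjusted p = 0.0158), Glrx2 (-0.30, adjusted p = 0.0337), Gstp1 (-0.30, adjusted p = 0.0414), Gpx1 (-0.29, adjusted p = 0.0442) and Hmox2 (-0.26, adjusted p = 0.0318). Msrb2 was at 2.12, 1.97, 2.07 and 2.20 on the normal and 1.30, 1.58, 1.87 and 1.86 on the deficient diet, with no overlap, within 1 slide. In wild-type cortex the deficient diet gave 0 called genes, against 0.223% of 28254 probes, and 0 at any fold, against 0.340%, with 5 at an unadjusted p under 0.05.

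In Ttpa-/- cerebellum the 2 diets differed in 0 genes, against 0.343% of 30643 probes, and 0 at any fold, against 0.767%, with 6 at an unadjusted p under 0.05, 1 by the methods' t-test unadjusted and 0 after adjustment. In cortex Ttpa-/- on the supplemented diet differed from wild type on the normal diet in 0 genes by limma, against 0.0920% of 28268 probes, and 0 at any fold, against 0.212%, with 3 at an unadjusted p under 0.05. The methods' t-test called none in wild-type cortex or in the supplemented cortex, adjusted or not. The largest differences there, Gpx3 on the deficient diet (0.42) and on the supplemented diet (0.41), did not pass.

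The difference between Ttpa-/- on the deficient diet and wild type on the normal diet was itself compared between regions. None of 60 genes was called by limma, against 3.38% of 31560 probes, with 17 at an unadjusted p under 0.05, and 2 passed at any fold against 7.04%: Prdx6, whose cerebellar difference was 0.53 above the cortical one (adjusted p = 0.0341), and Hmox2, whose was 0.38 below (adjusted p = 0.0191). Of the other genes of the pathways, 2 of 62 were called in the cortical contrast, the transferases Gsta2 (-1.85, adjusted p = 0.00116) and Gsto2 (-0.79, adjusted p = 0.00887), and 1 of 63 in the cerebellar one, Gstm7 (-0.80, adjusted p = 0.00165), all lower. Between regions 23 of 59 were called at 2 months (39.0%) and 17 of 64 at 29 months (26.6%), while the deficient diet in wild-type cerebellum had 3 called, genotype on that diet in cerebellum 3, the difference between regions for Ttpa-/- on the deficient diet 4, and the other comparisons of diet and genotype at most 2. The shares of all probes called between regions, 38.4% and 33.6%, were near the first of these list shares and above the second, and those of the cortical and cerebellar contrasts, 4.75% and 4.46%, were above the list's 3.23% and 1.59%.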

How the data were processed

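Total RNA from cortex and cerebellum was labelled with Cy3 and hybridised to 40 Agilent 1-colour arrays, 10 groups of 4, with groups and replicate numbers taken from the labels. Per the file headers, Feature Extraction 10.7.3.1 (10.1.1.1 in the submitters' processing notes) made the deposited processed intensity of each spot by subtracting a spatially detrended background and applying a multiplicative detrending. The authors also deposited a log2 table with each array's 75th percentile set to 0, which served as an alternative and differed from the values used here by a median of 0.000915. The deposited flags for spots well above background, outliers and control spots, a code or score of 0 or 1, set the filters. Here log2 of the processed intensity minus the array's 75th percentile was used. Control spots and outlier flags were left out, and spots of a probe were averaged, which kept 55589 of 55681 probes. The 75th percentile of the signal was 365 to 925 and 51.4% to 61.4% of probes were well above background, and the number of arrays limits the precision.

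limma 3.58.1 in R 4.3.3 fitted 1 mean per group over all 40 arrays, with 14 comparisons and 2 differences between regions. A probe was tested where well above background on all 4 arrays of a compared group, and p-values were adjusted by the Benjamini-Hochberg method over all probes tested. The script was tested on simulated data. The methods' t-test, median and quantile scaling, normexp, array weights, a slide or replicate block, each array left out and other choices were alternatives.

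The 60 genes and all lists were chosen with earlier results of these data known. Any of the 60 could be named, called genes with their arrays, and of the wider pathway list the 2 with the largest change per comparison. The glutathione transferases of that list called with age were also named. Same-numbered arrays deviated together in each of 4 pairs only for the diets in Ttpa-/- cortex (r of 0.102 to 0.450). Those groups lay on different slides and the labels do not say that replicate numbers pair arrays, so a pairing is not established. Probe positions are those of the files (mm9), and the windows upstream of genes are those of RefSeq on GRCm38.p6. The deposited tables held no column of an unmapped sample.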

Additional observations from a re-analysis of the deposited data

Results flagged for a closer look

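Of 81 combinations of a called gene and a group, 5 held an array far from the other 3, and chance flags about 1 in 20 groups. Hmox1 in young cortex was at -0.4044 on replicate 4, above -0.6188 to -0.6051 on the others. Mt2 in Ttpa-/- cortex on the deficient diet was at 5.658 on replicate 1, below 6.481 to 6.578. Gpx8 in young cerebellum was at 0.6665 on replicate 1, above -0.1571 to -0.01945. These 3 arrays are among the 4 that choroid plexus markers set apart, and their part in the values was not tested. On replicate 4 of aged wild-type cerebellum on the normal diet, Gpx3 was at -0.01287, above -0.6983 to -0.6191, and Mt3 was at 2.758, above 2.4 to 2.451.

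The change with age differed between the regions for 2 genes by the test of the difference in limma. It was larger in cerebellum by 0.6026 for Cyba and by 1.053 for Ncf1, and neither call held without the 4 arrays apart in choroid plexus markers.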

How the results depend on the processing

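No called gene changed direction under any alternative, and of 47 calls the authors' log2 values kept 47, no filter on dim probes 45, quantile normalization 42, median scaling 40, leaving out the arrays apart in choroid plexus markers (chosen after seeing the data) 39 and normexp 35. With the adjusted p alone and no fold limit the genes passing were 7 with age in cortex and 15 in cerebellum, 37 and 33 between regions at 2 and 29 months, 11 in cortex and 11 in cerebellum for Ttpa-/- on the deficient diet, 2 for its difference between regions, 5 for supplemented Ttpa-/- cerebellum, 6 for diet in wild-type cerebellum, 8 for diet in Ttpa-/- cortex, and 14 and 5 for genotype in cortex and cerebellum. For age in cortex 2 of 4 remained in number with normexp or the adjusted t-test. For the 2 calls of age by region the count was 0 with median scaling, no filter or the choroid plexus arrays left out, and 1 with quantile scaling, normexp, the compared groups alone or the mean of a gene's probes. For the 1 call of deficient Ttpa-/- cortex it was 0 with median scaling, the groups alone, the adjusted t-test or the choroid plexus arrays left out, and 2 with array weights or the unadjusted t-test. For the 2 calls of genotype in cortex it was 1 with median or quantile scaling or the choroid plexus arrays left out, and 0 with the groups alone or the adjusted t-test. For the 1 of genotype in cerebellum it was 3 with median scaling, 2 with the unadjusted t-test and 0 with normexp, array weights, the groups alone or the adjusted t-test. Where none was called, median scaling gave 1 for diet in wild-type cerebellum, and the unadjusted t-test gave 1 for deficient Ttpa-/- cerebellum and 1 for diet in Ttpa-/- cerebellum. The difference between regions for deficient Ttpa-/- gave 1 with quantile scaling, normexp, no filter or array weights. With the replicate block it also gave 1, and that block changed no other count by over 1.5 times and kept all 47 calls. Median scaling moved the median of all probes by 0.178 in wild-type cerebellar diet, 0.178 in cerebellar genotype and 0.109 in Ttpa-/- cortical diet. The cause of these shifts was not tested.

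With single arrays left out the counts ranged from 3 to 6 for age in cortex, 8 to 9 in cerebellum, 15 to 17 and 11 to 14 between regions at 2 and 29 months, 0 to 2 for age by region, 0 to 2 for deficient Ttpa-/- cortex, 0 to 1 in cerebellum, 0 to 2 for their difference, 1 to 3 for genotype in cortex and 0 to 2 in cerebellum, and stayed at 0 elsewhere. Mt2 in deficient Ttpa-/- cortex lost its call without replicate 1 of that group or replicate 2 of wild type on the normal diet, with changes from -0.88 to -0.57 over all arrays left out.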
